A study of Mus musculus with 4 samples.

Results

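The genes around Cebpa on mouse chromosome 7 were described in preproB cells that kept or had lost the enhancer of that gene. The members were all non-control probes of the array placed on chromosome 7 with a start between 33000000 and 40000000 in build mm9, grouped by the gene name in the file, without Cebpa and its neighbour Cebpg. They made up 90 genes, read by 111 probes, of 31541 genes on the array. Of the 90, 53 carried an ordinary symbol and 37 a transcript accession, clone or probe name. PreproB cells stand near the start of the B lineage. They were sorted from bone marrow of C57BL/6 mice as Lin-neg, B220+, CD43+, BP1- and CD24- cells, and their RNA was read in 1 colour (Cy3). Mice of both groups carried Enh(f/f), a Cebpa enhancer flanked by recombination sites that lies 37 kb downstream of the gene, and were given 3 doses of pIpC 5 weeks earlier. pIpC mimics viral double-stranded RNA and thereby switches on interferon. The control group had Enh(f/f) alone, and the EnhDel group had Enh(f/f);Mx1-Cre, in which the interferon-inducible Mx1 promoter drives Cre recombinase in many cell types. Enhancer loss and the presence of Cre therefore cannot be told apart. Each group had 2 arrays (n = 2). By its labels, control replicate 1 came from a 26-week-old female, and control replicate 2 and both EnhDel samples came from 24-week-old males.

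The sex labels were not borne out on 2 arrays. Control replicate 1, labelled female, had an Xist signal of 4.95, not well above background, and a Ddx3y signal of 3116, a gene of the Y chromosome. EnhDel replicate 2, labelled male, had an Xist signal of 597 and a Ddx3y signal of 1560, where the other 3 arrays had Ddx3y signals of 3116 to 3624 and Xist signals of 3.99 to 5.32. The median difference of the members, 0.16 on the log2 scale over all 4 arrays, was 0.14 without control replicate 1 and 0.08 without EnhDel replicate 2. Values without an array are given below for the members on which the results turn. The labels name the samples as replicates, and nothing says whether RNA of several animals was pooled, so a p-value covers no more than the spread among these 4 samples.

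Cebpa encodes C/EBPα, a transcription factor that directs progenitors towards granulocytes and monocytes, and its downstream enhancer is active in blood cells. An enhancer can act on a promoter over a long stretch of chromosome, and more than 1 gene of a neighbourhood can come under it. The genes beside Cebpa serve unrelated tasks: Pepd encodes prolidase, which splits dipeptides that end in proline, Slc7a10 encodes an amino acid transporter, Lrp3 a membrane protein of the lipoprotein receptor family, and Gpatch1 a protein bound to the spliceosome. Farther on the lower-coordinate side lies a cluster of secretoglobin genes of the androgen-binding protein family, made in glands of the mouse and known from saliva and tears.

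Sequences before the start of a gene are shown for Cebpa, for 3 of its neighbours and for 2 secretoglobins, because their letters differ in the counts described further on. Each is the 250 bases before the start from RefSeq's promoter table (build GRCm38.p6), whose coordinates differ from those of mm9. Capitals mark the E-box CACGTG in Lrp3 and matches to the C/EBP core TTGCNNAA, on either strand, in the secretoglobins. Cebpa, Pepd and Slc7a10 had neither.
Cebpa promoter, chr7:35119043-35119292, plus strand: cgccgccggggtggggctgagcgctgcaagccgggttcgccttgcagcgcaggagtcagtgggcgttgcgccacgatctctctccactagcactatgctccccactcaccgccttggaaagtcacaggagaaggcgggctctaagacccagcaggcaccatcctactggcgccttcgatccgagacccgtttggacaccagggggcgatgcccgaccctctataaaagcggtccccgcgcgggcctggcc
Pepd promoter, chr7:34912157-34912406, plus strand: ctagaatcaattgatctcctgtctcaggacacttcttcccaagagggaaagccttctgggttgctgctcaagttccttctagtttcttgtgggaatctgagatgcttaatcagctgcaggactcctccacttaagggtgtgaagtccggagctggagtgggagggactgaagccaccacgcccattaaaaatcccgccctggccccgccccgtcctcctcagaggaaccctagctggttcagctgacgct
Slc7a10 promoter, chr7:35186135-35186384, plus strand: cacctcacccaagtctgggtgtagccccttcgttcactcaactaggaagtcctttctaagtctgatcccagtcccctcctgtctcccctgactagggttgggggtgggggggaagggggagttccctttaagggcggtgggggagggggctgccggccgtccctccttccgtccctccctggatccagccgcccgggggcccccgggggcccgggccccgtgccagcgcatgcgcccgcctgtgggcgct
Lrp3 promoter, chr7:35215346-35215595, minus strand: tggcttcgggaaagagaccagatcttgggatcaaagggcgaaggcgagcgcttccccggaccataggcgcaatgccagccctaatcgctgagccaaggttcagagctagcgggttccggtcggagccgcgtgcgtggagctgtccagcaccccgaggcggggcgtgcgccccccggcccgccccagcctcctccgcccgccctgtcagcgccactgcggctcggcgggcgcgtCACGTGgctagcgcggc
Scgb1b27 promoter, chr7:34021231-34021480, plus strand: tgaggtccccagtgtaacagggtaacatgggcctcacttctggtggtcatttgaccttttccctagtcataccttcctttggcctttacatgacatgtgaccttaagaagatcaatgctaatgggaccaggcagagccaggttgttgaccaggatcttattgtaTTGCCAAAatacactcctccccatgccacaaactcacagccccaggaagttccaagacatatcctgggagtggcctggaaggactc
Scgb2b27 promoter, chr7:34013943-34014192, minus strand: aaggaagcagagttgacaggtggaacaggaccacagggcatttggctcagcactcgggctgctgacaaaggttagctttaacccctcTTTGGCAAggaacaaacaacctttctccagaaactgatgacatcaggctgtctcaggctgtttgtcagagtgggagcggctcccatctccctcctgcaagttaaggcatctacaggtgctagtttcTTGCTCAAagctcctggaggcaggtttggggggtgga
The probe nearest to Cebpa among the members reads AK080020, a cDNA clone between Cebpa and its enhancer, and is shown because no promoter of it was matched; its letters have no capitals.
AK080020 probe, mm9 chr7:35920092-35920151, minus strand: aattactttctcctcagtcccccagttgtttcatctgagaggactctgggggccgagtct

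The first question was whether transcripts of the neighbourhood differed when that of Cebpa did. The Cebpa probe, at chr7:35906517-35906576 in mm9, gave a processed signal (the scanner software's background-corrected intensity) of 1271 and 927 on the control arrays and of 125 and 287 on the EnhDel arrays. The EnhDel arrays were lower than either control array. The difference, EnhDel minus control, was -2.42 ± 0.45 (SE, n = 2 per group) on the log2 scale, 5.35-fold lower, with an adjusted p of 0.248 in limma (-1.87 without EnhDel replicate 1, -2.97 without EnhDel replicate 2 and -2.11 without control replicate 1). The probe reads the transcript and does not measure the deletion. All differences below are on this log2 scale, EnhDel minus control with the SE, after each array was scaled to its 75th percentile. Cebpg, beside it on the lower-coordinate side, had signals of 776 and 856 against 687 and 788 and a difference of -0.05 ± 0.15.

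No member passed an adjusted p of 0.05 in limma: 0 of 52 tested members, beside 0 of 19328 tested genes (0.0%). At an unadjusted p under 0.05 in limma there were 5 members, or 9.62% of those tested, beside 11.0% of all genes tested, and these were Wtip, Plekhf1, Wdr88, Rhpn2 and the transcript ENSMUST00000101266. After scaling, the control and EnhDel arrays did not overlap in 30 of 52 members, or 57.7%, beside 43.8% of all genes. At 1.5-fold or more without overlap, 10 members (19.2%) were higher on the EnhDel arrays, beside 8.72% of all genes, and 2 (3.85%) were lower, beside 5.27%. Those 2 were Wtip and Ccne1. Wtip entered the test through the control group alone, and Gm5591 and a probe-named member among the 10 through the EnhDel group alone. This split rested on the scaling: overlap aside, 11 members were at least 1.5-fold higher and 2 lower, but 3 and 2 with median scaling or quantile normalization and 1 and 2 after cyclic loess. Over all genes, those 3 settings gave 1169 higher and 1633 lower, 1135 and 1325, and 1159 and 1391. With an array left out, its group is a single array, and a p-value then holds no spread of that group. Only differences are therefore given for those settings.

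Most members had differences close to zero. The median was 0.16, with 29 higher and 23 lower (24 and 28 with median scaling) and a range of -1.93 to 0.95. Beside it, the median was 0.06 over all genes tested and 0.08 over the 1496 tested genes of chromosome 7 outside the window. Over all genes tested, 11288 were higher and 8040 lower (7008 and 12320 with median scaling). The median absolute difference of the members was 0.28, beside 0.20 for both other sets. Within 0.5 of zero lay 36 of 52 members (69.2%), beside 79.9% of all genes and 78.7% of the rest of chromosome 7. The 95% interval lay wholly above the Cebpa difference in 50 of 52 members. That difference was taken as a point, although its own interval was -3.63 to -1.21. The intervals of Wtip, Ccne1, Zfp536 and NAP115343-1 reached into the Cebpa interval. The members' interval lay wholly above -1, a halving, in 47 of 52.

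**Figure D1:**
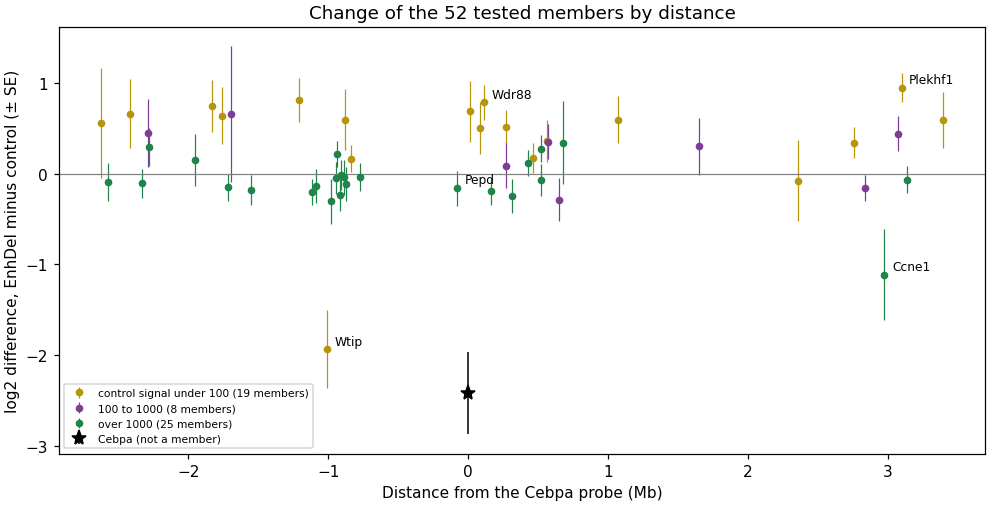
Log2 difference (EnhDel minus control, points, with the SE as bars) of the 52 tested members against the distance of their probe from the Cebpa probe in Mb, coloured by control signal. Cebpa (star) is at -2.42, the 26 members within 1 Mb lie between -0.31 and 0.78, and Wtip and Ccne1 are the members beyond a 2-fold difference.

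Among the genes that flank Cebpa within 250 kb, no tested member came near the difference of Cebpa itself. On the lower-coordinate side, Pepd (probe chr7:35829618-35829677, 76.9 kb away) had signals of 14871 and 15863 on the control arrays and of 14139 and 11675 on the EnhDel arrays. The EnhDel values were the 2 lowest signals, but after scaling the groups overlapped, and the difference was -0.16 ± 0.19, with a 95% interval of -0.68 to 0.36 (from -0.42 to 0.03 over the alternatives). The interval of Cebpa, -3.63 to -1.21, lies below it.

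AK080020, 13.6 kb from the Cebpa probe on the side of the enhancer, had signals of 68.8 and 68.2 on the control arrays and of 73.3 and 144 on the EnhDel arrays. This clone was chosen after its values were seen, for its place. EnhDel replicate 2 alone stood apart, and the difference of 0.68 ± 0.34 became 0.25 without that array and 1.12 without the other EnhDel array. The deposited array positions do not say whether it is a gene of its own.

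Past the enhancer, Slc7a10 and Lrp3 end close to each other. Slc7a10, the amino acid transporter gene (79.4 kb), had signals of 4.34 and 2.80 against 3.98 and 5.62, not well above background on any array. Lrp3 (probe chr7:35987952-35988011, 81.4 kb) had signals of 36.8 and 24.8 on the control arrays and of 39.6 and 40.2 on the EnhDel arrays. Its EnhDel values were the higher ones, the difference was 0.50 ± 0.29 (0.87 without control replicate 1, and 0.00 to 1.18 over the alternatives), and a second Lrp3 probe was not well above background.

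Wdr88, which encodes a WD-repeat protein (probe chr7:36021257-36021316, 115 kb), had signals of 21.7 and 25.9 on the control arrays and of 32.3 and 44.9 on the EnhDel arrays. Both EnhDel values lay above both control values, not far over the arrays' lowest signals well above background, 12.2 to 14.4. The difference was 0.78 ± 0.19, or 1.72-fold higher, with an adjusted p of 0.327 in limma (0.60 without EnhDel replicate 2, and 0.25 to 1.30 over the alternatives). Gpatch1, the spliceosome gene (162 kb), had signals of 1426 and 1605 against 1160.2 and 1311 and a difference of -0.20 ± 0.14, and its second probe had -0.02.

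The list of 8 flanking genes reaches to Chst8 and Kctd15 on the lower side and Rhpn2 on the upper. Of its 8 members 5 were tested, with 3 higher, 2 lower, none past the adjusted threshold in limma and 2 (Wdr88 and Rhpn2) at an unadjusted p under 0.05, beside 11.0% of all genes tested. Rhpn2 (271 kb) had signals of 62.2 and 62.2 on the control arrays and of 71.7 and 96.1 on the EnhDel arrays. Its difference was 0.51 ± 0.19 with an adjusted p of 0.45 in limma (from 0.20 to 1.07 over the alternatives). Kctd15, a regulator of neural crest formation (482 kb), and Chst8, a sulfotransferase gene (447 kb), were not well above background on any array, with signals of 6.54 to 7.54 and of 2.88 to 3.49.

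**Figure D2:**
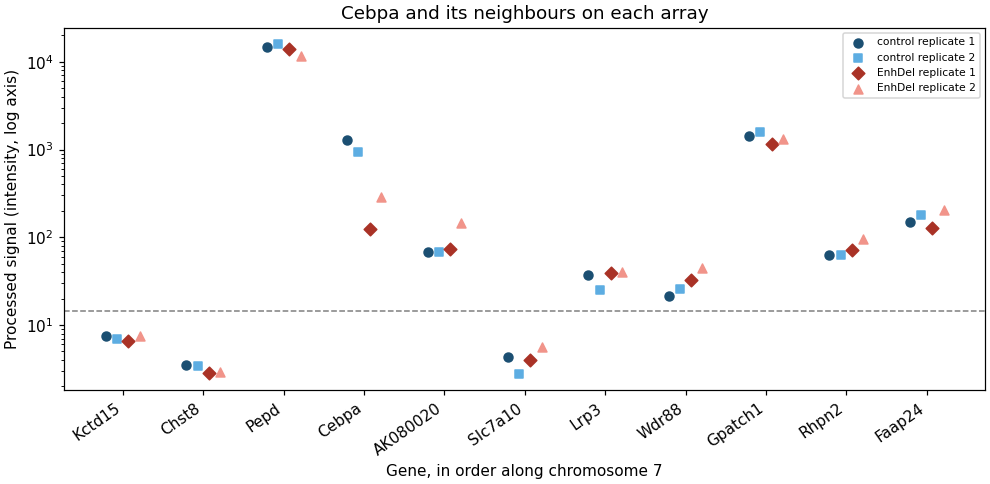
Processed signal (intensity, log axis) of Cebpa and 10 members in their order along chromosome 7, with 1 point per array. The dashed line marks the highest of the arrays' lowest signals well above background, 14.4; the EnhDel points of Cebpa lie below its control points, while those of Pepd and Gpatch1 lie close to theirs and Kctd15, Chst8 and Slc7a10 stay under the line.

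The members are given by role from here on. In the RNA handling list (Gpatch1, Lsm14a, Uri1 and Pop4), 4 of 4 were tested, none passed the threshold, and all 4 had small negative differences, from -0.20 to -0.04. Lsm14a, a gene of cytoplasmic RNA bodies (776 kb), had signals of 4747 and 5156 on the control arrays and of 4587 and 4421 on the EnhDel arrays. Its difference was -0.04 ± 0.15, and it was 0.04 without EnhDel replicate 2. Farther out, Uri1, a prefoldin-like gene (2839 kb), had -0.16 ± 0.15, and Pop4, a subunit of ribonuclease P (3141 kb), had -0.07 ± 0.15.

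Of 5 members in the list of metabolic enzymes, 4 were tested and none passed. Gpi1, the glycolytic enzyme glucose-6-phosphate isomerase (919 kb), had signals of 63376 and 64249.8 on the control arrays and of 53594 and 47868 on the EnhDel arrays. The EnhDel values were the lower ones on all 3 of its probes, which gave -0.22 to -0.28, and its representative probe had -0.24 ± 0.18. Uba2, a subunit of the enzyme that activates SUMO (981 kb), had -0.31 ± 0.25, the lowest value within 1 Mb, and -0.01 without EnhDel replicate 2. Nudt19, a coenzyme A hydrolase gene (426 kb), had signals of 9219.9 and 9897 against 9203 and 10169 and a difference of 0.12 ± 0.14 (-0.06 with median scaling). Dpy19l3, a mannosyltransferase gene (568 kb), had 0.35 ± 0.19.

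In the list of endocytosis and membrane trafficking, 4 of 4 members (Lrp3, Rhpn2, Ankrd27 and Plekhf1) had positive differences without overlap between the groups, 2 at an unadjusted p under 0.05 and none past the adjusted threshold in limma. Over all genes tested, 43.8% were without overlap and 11.0% had an unadjusted p under 0.05. The median of the list was 0.51, beside 0.16 over all tested members. Ankrd27, a regulator of endosomal Rab proteins (518 kb), had signals of 8404 and 8986 on the control arrays and of 9901 and 9723 on the EnhDel arrays, and a difference of 0.27 ± 0.15 (0.10 with median scaling). The other 3 had a control signal under 100. Over all genes of that range, EnhDel replicates 1 and 2 differed from the control mean by medians of 0.15 and 0.54 (below). In the same order, Lrp3 had 0.54 and 0.46, Rhpn2 0.35 and 0.68, and Plekhf1 0.84 and 1.05. Whether signal level played a part in these differences was not tested.

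Genes of the cell cycle, the centrosome and genome maintenance gave 4 tested of 5, with 1 higher and 3 lower. Faap24, of the Fanconi anaemia complex (274 kb), had signals of 151 and 177 against 127 and 206, so both control values lay between the EnhDel values. Its difference was 0.08 ± 0.25. Cep89, a centrosome gene (317 kb), had -0.25 ± 0.19, with 0.06 on its second probe. Pdcd5, linked to apoptosis (521 kb), had -0.07 ± 0.18, and Tdrd12, a gene of the germline piRNA pathway (401 kb), was not well above background on any array.

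The other named members within 1 Mb gave no adjusted p under 0.05 either. Pdcd2l (937 kb) had 0.22 ± 0.15, Garre1, a Rac effector gene (885 kb), -0.04 ± 0.20, the zinc-finger gene Zfp507 (651 kb) -0.29 ± 0.24 (-0.01 without EnhDel replicate 2), and Rgs9bp, known from photoreceptors (463 kb), 0.17 ± 0.16. Rgs9bp turned to -0.10 after quantile normalization. The cystine transporter gene Slc7a9 (344 kb) was not well above background on any array. Of the 3 genes of amino acid transport and dipeptide breakdown, Pepd was thus the only one tested.

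E130304I02Rik (681 kb), a clone without a known role, was read by a pair of probes on opposite strands, shown because they gave different values.
E130304I02Rik first probe, mm9 chr7:36587036-36587095, minus strand: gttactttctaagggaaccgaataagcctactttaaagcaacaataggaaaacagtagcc
E130304I02Rik second probe, mm9 chr7:36587932-36587991, plus strand: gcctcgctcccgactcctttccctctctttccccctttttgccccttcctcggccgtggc
The second probe gave signals of 2682 and 2316 on the control arrays and of 1866 and 4656 on the EnhDel arrays, a difference of 0.34 ± 0.46, and the first gave 199.8 and 193 against 186 and 185, a difference of 0.02. On the second probe the EnhDel arrays lay on either side of the controls. The difference was -0.27 without EnhDel replicate 2 and 0.95 without EnhDel replicate 1, so its direction rests on which array is used.

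Beyond 1 Mb, the members farthest from zero lay more than 1 Mb from Cebpa in either direction. Wtip, which encodes a LIM-domain protein of cell junctions (probe chr7:34894614-34894673, 1012 kb on the lower side), had signals of 49.9 and 53.2 on the control arrays and of 18.4 and 8.61 on the EnhDel arrays. The EnhDel arrays were the low ones, and replicate 2 was not well above background. The difference was -1.93 ± 0.43, or 3.82-fold lower, with an adjusted p of 0.301 in limma, and -1.33 without EnhDel replicate 2. Its size and its sign depended on how the background was handled. The authors' deposited values gave -0.85, the normexp correction 0.58, and the same correction with 6 aberrant spots repaired -0.54. Without EnhDel replicate 1 the value was -2.53. It and the 3.82-fold rest on a signal of EnhDel replicate 2 under that array's lowest well above background, 12.2.

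Ccne1, the gene of a cyclin that drives entry into S phase (probe chr7:38882937-38882960, 2976 kb on the upper side), had signals of 1053 and 1394 on the control arrays and of 823 and 333 on the EnhDel arrays. EnhDel replicate 2 was far below the other 3 arrays. The difference was -1.11 ± 0.50, or 2.16-fold lower, with an adjusted p of 0.514 in limma, and a second probe had -1.24. Leaving out EnhDel replicate 2 gave -0.41, leaving out control replicate 1 gave -1.23, and leaving out EnhDel replicate 1 gave -1.81.

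Plekhf1, an endosomal protein gene with PH and FYVE domains (probe chr7:39006022-39006081, 3099.5 kb), had signals of 47.5 and 56.2 on the control arrays and of 83.7 and 103 on the EnhDel arrays. Both EnhDel values lay above both control values and near each other. The difference was 0.95 ± 0.16, or 1.93-fold higher, with an adjusted p of 0.223 in limma, and it was 0.91 without control replicate 1 and 0.84 without EnhDel replicate 2. The repaired normexp correction gave 0.52 and the authors' deposited values 0.45. Gm5591 (3398 kb) had signals of 13.3 and 14.9 against 14.4 and 27.2, a difference of 0.59 ± 0.31 (0.18 without EnhDel replicate 2), and its 3 other probes were not well above background.

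The developmental zinc-finger genes Tshz3 (1651 kb) and Zfp536 (2358 kb) overlapped between the groups. Tshz3 had signals of 134 and 101 on the control arrays and of 159 and 112 on the EnhDel arrays, a difference of 0.30 ± 0.32. Zfp536 had 31.2 and 15.2 against 20.6 and 17.996, a difference of -0.08 ± 0.44. A second Zfp536 probe was well above background on EnhDel replicate 2 alone, at 40.7, so the probes disagreed. In the transcription list, with Kctd15 and Zfp507, 3 of 4 were tested and none passed the threshold in limma.

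The secretoglobin cluster was almost wholly silent. Of 14 secretoglobin members, 13 were not well above background on any array. Scgb2b20 (1757 kb) had signals of 68.1 and 63.5 on the control arrays and of 70.3 and 129.9 on the EnhDel arrays, so EnhDel replicate 2 alone stood apart, and the difference was 0.64 ± 0.32. That became 0.24 without EnhDel replicate 2, and a second probe of the gene was not well above background. Genes of such a cluster are near-copies, so a probe may read more than 1 of them.

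Detection varied along the chromosome. A probe was well above background on all 4 arrays in 48 of 90 members (53.3%) and on none in 35 (38.9%), beside 57.6% and 32.5% of all genes. Under 0.25 Mb from Cebpa 5 of 6 members were well above background on all 4 arrays, and from 0.25 to 1 Mb 21 of 28. From 1 to 2 Mb it was 10 of 33, where the secretoglobins lie, and over 2 Mb 12 of 23. No member was well above background on both control arrays and on neither EnhDel array. The opposite held for 1 member with a probe name, at 15.7 and 14.6 against 18.1 and 31.0. Its difference was 0.75, or 1.68-fold higher, with a 95% interval of -0.02 to 1.51, and it was 0.41 on EnhDel replicate 1. The control signals of this member were not well above background, so it entered the test through the EnhDel group alone. Its probe lies among the secretoglobins, 1833 kb away on the lower side. It shares a run of at least 25 bases with the probe of the secretoglobin Scgb1b20, so it may read more than 1 transcript.

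**Figure D3:**
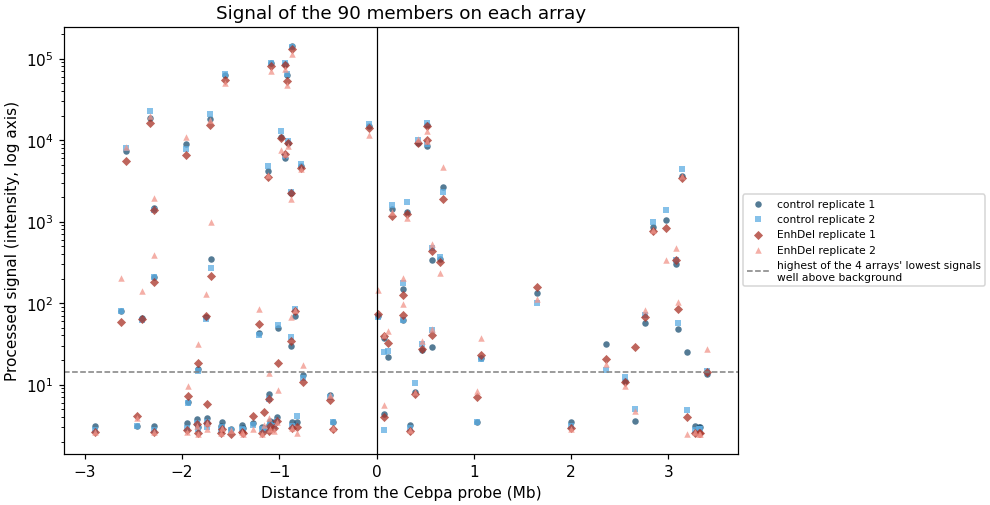
Processed signal (intensity, log axis) of all 90 members on each array against the distance of the probe from Cebpa in Mb, with Cebpa at the vertical line. The dashed line marks 14.4, the highest of the arrays' lowest signals well above background; the 13 silent secretoglobins form part of the low points between -3 and -1 Mb.

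The size of the difference did not follow the distance from Cebpa in a steady way. The median difference, with its sign, was 0.50 in 5 tested members under 0.25 Mb and 0.08 in 21 from 0.25 to 1 Mb. It was 0.22 in 12 from 1 to 2 Mb and 0.32 in 14 over 2 Mb. The median absolute differences in the same order were 0.50, 0.22, 0.45 and 0.39. Across the 52 tested members, Spearman's rho between absolute difference and distance was 0.13, and within 1 Mb (26 members) it was -0.36. Neighbouring genes share arrays, and 3 of the 5 nearest tested members had a control signal under 100, so these are descriptions. Within 1 Mb the median was 0.10 and 21 of 26 lay within 0.5 of zero. All 26 intervals there lay above -1, and 20 lay between -1 and 1. Without EnhDel replicate 2 the 26 members ranged from -0.27 to 0.60, without control replicate 1 from -0.37 to 0.87, and without EnhDel replicate 1, where 27 were tested, from -0.60 (Uba2) to 1.12 (AK080020).

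The difference varied with the signal level, and its size with the array. The members were divided by control signal after the values were seen. In 19 members with a control signal under 100, EnhDel replicate 1 differed from the control mean by a median of 0.24 and EnhDel replicate 2 by 0.97, beside 0.15 and 0.54 in 5220 genes of that range. Each EnhDel array lay above the control mean in 17 of the 19. Of the 5220 genes, EnhDel replicate 1 lay above it in 3486 and EnhDel replicate 2 in 4167. In 25 members over 1000 it was -0.01 and -0.16, beside 0.03 and -0.10 in 8513 genes. The 10 members higher by 1.5-fold without overlap all had a control signal under 100, and EnhDel replicate 2 was the higher EnhDel array in all 10. Their differences were 0.16 to 0.84 on EnhDel replicate 1 and 0.89 to 1.16 on EnhDel replicate 2. Gm5591 and a member with a probe name, both among the 10, entered the test through the EnhDel group alone. Among the 19, Zfp536 also did so, and Wtip entered through the control group alone. The ranges were set by the same control signals from which the differences were taken, so range and difference are not independent. Over all genes the log2 difference between replicates had an SD of 0.333 in the control group and 0.611 in the EnhDel group. The part of signal level in the members' differences was not tested.

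**Figure D4:**
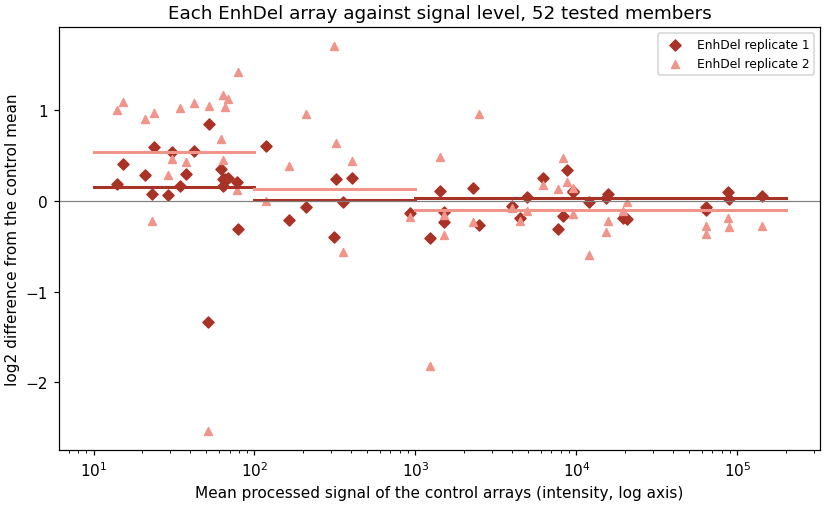
Log2 difference of each EnhDel array from the control mean for the 52 tested members, against the mean control signal (intensity, log axis); horizontal lines are the medians of all tested genes in the ranges under 100, 100 to 1000 and over 1000. Among the dim members the points of EnhDel replicate 2 lie mostly above those of replicate 1.

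Promoter letters were compared over the 42 members matched in RefSeq's table. The C/EBP core TTGCNNAA, on either strand in the 250 bases before the start, was in 9 of 10 secretoglobin promoters and in 1 of 32 others (Pdcd5), beside 9.56% of all 32851 promoters. The secretoglobins are a family of duplicated genes, so these matches are not separate. The E-box CACGTG was in 2 members, Lrp3 and Zfp507, beside 6.02% of all promoters. The match in Lrp3 lies 17 bases before the start and that in Scgb1b27, TTGCCAAA, 86 bases before it. A match is a description of letters and not a binding site.

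CG dinucleotides, which mark promoters of widely used genes, went in part with detection, and the ranges overlapped. The median was 0.5 in the secretoglobins (0 to 2 per promoter) and 14 in the 21 other members well above background on all 4 arrays (6 to 34). In the 11 others detected on fewer arrays it was 6 (0 to 32), the same as over all promoters. Of the sequences shown above, Cebpa has 22, Lrp3 30, Slc7a10 14, Pepd 6, Scgb2b27 2 and Scgb1b27 0. Slc7a10 was silent and Pepd was not, so the count does not order single genes.

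**Figure D5:**
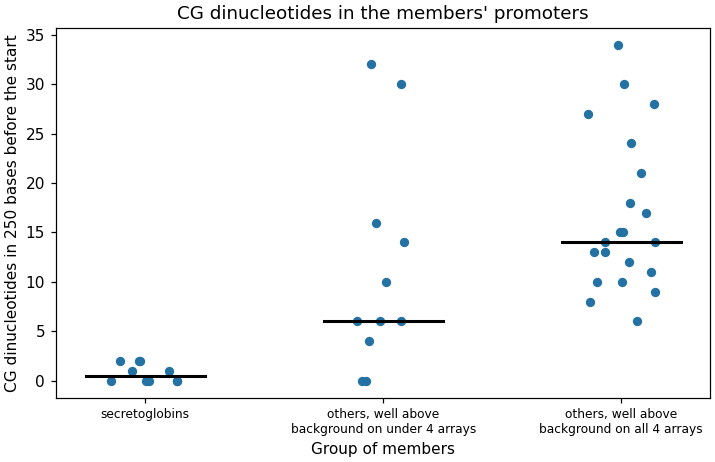
CG dinucleotides in the 250 bases before the start, with 1 point per member matched in RefSeq's table (side-to-side spread has no meaning) and the median as a bar. Secretoglobins lie at 0 to 2, and the 21 other members well above background on all 4 arrays at 6 to 34.

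Cell markers moved between the same arrays. Of 14 B-lineage and sorting genes, 12 or 13 were well above background on each array, with a summed signal of 139839 and 159498 on the control arrays and of 124526 and 109469 on the EnhDel arrays. Their median difference was -0.82, with 9 lower and 3 higher of 12 tested, and Igll1, a gene of the pre-B receptor, and Ebf1, a B-lineage regulator, had -3.41 and -2.35. The 8 monocyte and macrophage genes summed to 11881 and 12200.1 against 2920.1 and 5501, with a median difference of -2.84, and the 6 erythroid genes to 385 and 1213 against 1985 and 3756, with a median of 2.04. Among the B-lineage genes, Pax5 was well above background on control replicate 2 alone. The 8 plasmacytoid dendritic cell genes were all well above background on every array. They summed to 939910 and 957041 against 884936 and 896288, the largest sums of any list, with a median difference of 0.07. Tested neutrophil genes had a median of -1.06 and T and NK cell genes of 0.51, and no marker passed the adjusted threshold in limma. Fewer cells of a type and less RNA per cell cannot be told apart in such samples, and the part of these cells in the members' differences was not tested. In 13 members the brightest probe shared a run of at least 25 bases with a probe of another name. For 10 of them such a probe lies outside the window, so these members may read transcripts from elsewhere. Gm5591 and NAP115343-1 had such a run on a probe other than their brightest.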

How the data were processed

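Each scanner file holds 44397 spots with their intensity, as made by the authors with Agilent Feature Extraction (version 10.7.3.1) and deposited, per the file headers, with probe positions in mm9. A table of log2 values was also deposited by the authors; the sources used here do not give its steps. Processed signals were taken to log2, and the 75th percentile of each array was subtracted. Control spots and 126 to 162 outlier spots per array were left out, and spots of a probe were averaged. The brightest probe stood for a gene. A gene entered the test if both arrays of a group read that probe well above background, as held for 52 of 90 members; the other 38 were not tested. Between 59.6% and 64.9% of probes were well above background, none was saturated, and all 4 arrays lay on 1 slide and 1 scan. The number of arrays limits the precision. No member lacked a value on any array.

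The test was limma (3.58.1, R 4.3.3; lmFit and eBayes) over 19328 genes, with Benjamini-Hochberg adjustment at 0.05. The fit was tested on simulated data. The names of 18 members were updated through RefSeq's table (GRCm38.p6), used for names and promoters. Named genes were members with an ordinary symbol within 1 Mb of Cebpa, up to 6 tested members in each direction beyond it by p among those at least 1.5-fold apart without overlap, and up to 4 tested members of each list. The members and lists were chosen with earlier results of these data known. Alternatives were other background corrections (normexp, also with 6 aberrant local backgrounds replaced), scalings, filters, probe rules and variance settings, the authors' values, the replicate number as a block and each array left out. No exon or UTR is given for probes, because no mm9 annotation was used here.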

Additional observations from a re-analysis of the deposited data

How the results depend on the processing

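Over the 16 alternatives, 25 of 445 values of the 28 tested named members had the opposite sign, in 13 members (E130304I02Rik, Faap24, Garre1, Lsm14a, Nudt19, Pdcd2l, Pdcd5, Pepd, Rgs9bp, Tshz3, Wtip, Zfp507 and Zfp536). Where the difference exceeded its SE, these were Pdcd2l (-0.031), Zfp507 (0.060) and Wtip (0.58) with the unrepaired normexp correction, and Rgs9bp, at -0.10 after quantile normalization, cyclic loess and in the authors' values and -0.0037 with median scaling. The count of members past the threshold in limma was 0 in 14 alternatives and ranged from 0 to 8 with each array left out. For all genes it was 26 with median scaling and ranged from 0 to 2071 with each array left out. The members' median lay between -0.04 and 0.21. The all-gene median of 0.06 became 0.20 under the unrepaired normexp correction and -0.12 under median scaling. Over all tested members, Spearman's rho between absolute difference and distance was 0.13 in the main setting and 0.15 under the unrepaired normexp correction. With each array left out it was 0.10 to 0.24. The value of -0.36 within 1 Mb was computed in the main setting alone. Replicate numbers did not pair the samples (correlation of deviations -0.024), and with the replicate block 0 members and 0 genes passed. Signals under 12.2 to 14.4 were not measurable.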
